A study of Mus musculus with 12 samples.

Results

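The chemokines that steer neutrophils were examined in mouse prostate tumours grown in hosts without p62 and in wild-type hosts. They comprise 7 ligands (Cxcl1, Cxcl2, Cxcl3, Cxcl5, Cxcl12, Ppbp and Pf4) and 3 receptors (Cxcr1, Cxcr2 and Cxcr4), chosen by gene symbol as 10 of the 19937 genes that the arrays name. Each gene was represented by the probe set with its single symbol and the highest mean over the tumours. TRAMP-C2Re3 mouse prostate carcinoma cells (50000 per mouse) had been injected into the prostates of C57BL6 mice, and tumours were taken 60 days later, 6 from p62 KO hosts and 6 from WT hosts. Each tumour came from its own mouse and was measured on 1 array as total RNA. The injected cells were the same in both groups and carry their own copy of Sqstm1, the gene for p62, so that only host cells in the KO tumours lack it. The sources used here give neither the age of the mice nor a sample of the cells before injection. All levels below are log2 array intensities after RMA, a procedure that corrects background, normalizes arrays and summarises probes, and differences are log2 of KO hosts minus WT hosts.

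As background, CXCL1, CXCL2, CXCL3, CXCL5 and the neutrophil-activating peptide cut from the Ppbp product bind CXCR2, the main receptor that draws mouse neutrophils into inflamed tissue. CXCR1 is a close relative of CXCR2. CXCL12 acts through CXCR4, which holds neutrophils in the bone marrow, and in tumours it is made largely by stromal cells. Platelets store PF4 and the Ppbp product in their alpha granules, and PF4 is not a CXCR2 ligand. Cxcl1, Cxcl2 and Cxcl3 are classical NF-kB target genes that respond to interleukin 1, tumour necrosis factor and interleukin 17.

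In the RefSeq gene order of mouse chromosome 5, Cxcl5, Ppbp, Pf4, Cxcl3, Cxcl15, Cxcl1 and Cxcl2 follow one another with no other protein-coding gene between them. Cxcr2 and Cxcr1 are neighbours on chromosome 1, which also holds Cxcr4, and Cxcl12 is on chromosome 6. RefSeq promoter sequences of build GRCm38.p6 covered 9 of the 10 genes, all but Cxcl5. The promoters of Cxcl1, Cxcl2 and Cxcl3, whose levels are set against each other below, are shown beside that of their neighbour Pf4 to show which letters the 3 have in common. They run on the plus strand from 250 bases before the start of the gene to 50 bases after it, at chr5:90890995-90891294 for Cxcl1, chr5:90903649-90903948 for Cxcl2, chr5:90785851-90786150 for Cxcl3 and chr5:90772185-90772484 for Pf4. Capitals mark 2 letter strings on the printed strand: GGAATTTCC, which is one form of the NF-kB motif, and ATAAAA, letters that also occur in TATA boxes.
Cxcl1: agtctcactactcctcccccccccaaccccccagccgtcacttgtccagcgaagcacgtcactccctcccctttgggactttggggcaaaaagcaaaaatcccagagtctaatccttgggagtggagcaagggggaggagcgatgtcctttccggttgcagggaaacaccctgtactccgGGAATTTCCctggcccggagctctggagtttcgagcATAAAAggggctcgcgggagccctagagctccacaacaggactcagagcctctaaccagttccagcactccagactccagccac
Cxcl2: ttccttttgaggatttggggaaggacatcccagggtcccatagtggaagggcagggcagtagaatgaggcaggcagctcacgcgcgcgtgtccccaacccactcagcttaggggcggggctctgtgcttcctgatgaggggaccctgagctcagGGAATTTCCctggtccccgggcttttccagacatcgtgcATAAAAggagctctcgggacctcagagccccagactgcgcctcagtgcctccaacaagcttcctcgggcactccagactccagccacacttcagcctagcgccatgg
Cxcl3: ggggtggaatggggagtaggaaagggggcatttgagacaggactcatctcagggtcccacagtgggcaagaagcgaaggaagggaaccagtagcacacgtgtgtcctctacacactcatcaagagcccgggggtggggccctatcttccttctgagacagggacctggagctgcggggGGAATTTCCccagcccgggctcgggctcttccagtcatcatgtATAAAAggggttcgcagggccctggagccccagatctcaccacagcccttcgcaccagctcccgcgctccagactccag
Pf4: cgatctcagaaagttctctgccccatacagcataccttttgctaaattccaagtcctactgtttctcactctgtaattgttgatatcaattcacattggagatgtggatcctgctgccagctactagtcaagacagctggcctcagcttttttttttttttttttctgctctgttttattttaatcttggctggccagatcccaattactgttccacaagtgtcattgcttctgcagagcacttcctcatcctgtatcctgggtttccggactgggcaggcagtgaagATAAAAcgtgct
The letters GGAATTTCC, searched on both strands, occurred in the promoters of Cxcl1, Cxcl2 and Cxcl3 and in no other of the 9. They began 70, 96 and 72 bases before the start of Cxcl1, Cxcl2 and Cxcl3, and ATAAAA followed on the same strand 36, 39 and 43 bases further on. ATAAAA did not set these 3 apart: it occurred on either strand in 7 of the 9 promoters, also those of Ppbp, Pf4, Cxcr1 and Cxcr4. In Pf4 the marked copy lies after the start, at base 39 of the gene. Among all 32851 promoters of the table, 0.317% held GGAATTTCC and 18.5% held ATAAAA on either strand, and the 2 strings do not overlap in those shown. Both strings were picked after these sequences had been seen. Of the other 100 genes whose promoters hold GGAATTTCC, 68 were measured, and 38 of them (55.9%) were higher in KO hosts, close to the 55.2% of all 15613 measured genes with a promoter.

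The arrays of KO hosts 2 and 3 and WT hosts 2 and 5 stood apart from the rest. Their interquartile ranges were 2.15 to 2.59, against 2.70 to 2.95 for the other 8 arrays, and some results are also given without them. Over the 28192 probe sets tested with limma, 1 probe set (0.00355%) passed an adjusted p under 0.05 (Benjamini-Hochberg), and it was lower in KO hosts. Sqstm1 averaged 8.73 ± 0.39 in KO hosts and 8.89 ± 0.23 in WT hosts (SD, n = 6 each), a difference of -0.16 (exact permutation p = 0.42). Because the injected cells carry Sqstm1, this is a weak check of the labels. Of 15 measured genes of prostate epithelium and its secretions, 11 had means below 4.95, the median of the arrays' lower quartiles, among them Pbsn (probasin, an androgen-driven secretory gene) at 3.01 ± 0.12 in KO hosts and 2.95 ± 0.12 in WT hosts. Krt18, a keratin of luminal epithelium, averaged 6.04 ± 0.19 in KO hosts and 5.84 ± 0.15 in WT hosts.

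None of the 10 genes passed the adjusted threshold (limma, adjusted p = 0.99 for each), and the 2 host groups overlapped in all 10. Over all probe sets, 0.0709% were higher and 0.0745% lower in KO hosts with no overlap. Means were higher in KO hosts for 8 genes and lower for Cxcl5 and Cxcl12, while 57.2% of all probe sets had a difference above 0. A set of 4 genes, Cxcl2, Pf4, Cxcl3 and Cxcr4, had an unadjusted p under 0.05 (limma), all with higher means in KO hosts, while 2.39% of all probe sets had one, 1.28% higher and 1.11% lower. The median difference of the 10 genes was 0.41, compared with 0.02 over all genes. The count of 4 depended on single tumours: it was 2 without KO hosts 2 and 3 (Cxcl2 and Pf4), 2 without KO hosts 2 and 3 and WT hosts 2 and 5 (Cxcl2 and Ppbp), and between 2 and 5 when any 1 tumour was left out. Of all probe sets, 7.72% had such a p without KO hosts 2 and 3, and 5.09% without those 4 tumours. With 1 tumour left out the share was 1.54% to 3.58%. Leaving out KO host 3 alone, or WT host 6 alone, left Cxcl2 and Pf4. The spread between tumours was larger in KO hosts for 8 of the 10 genes, which is near the 81.1% of all genes with a larger SD there.

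**Figure D1:**
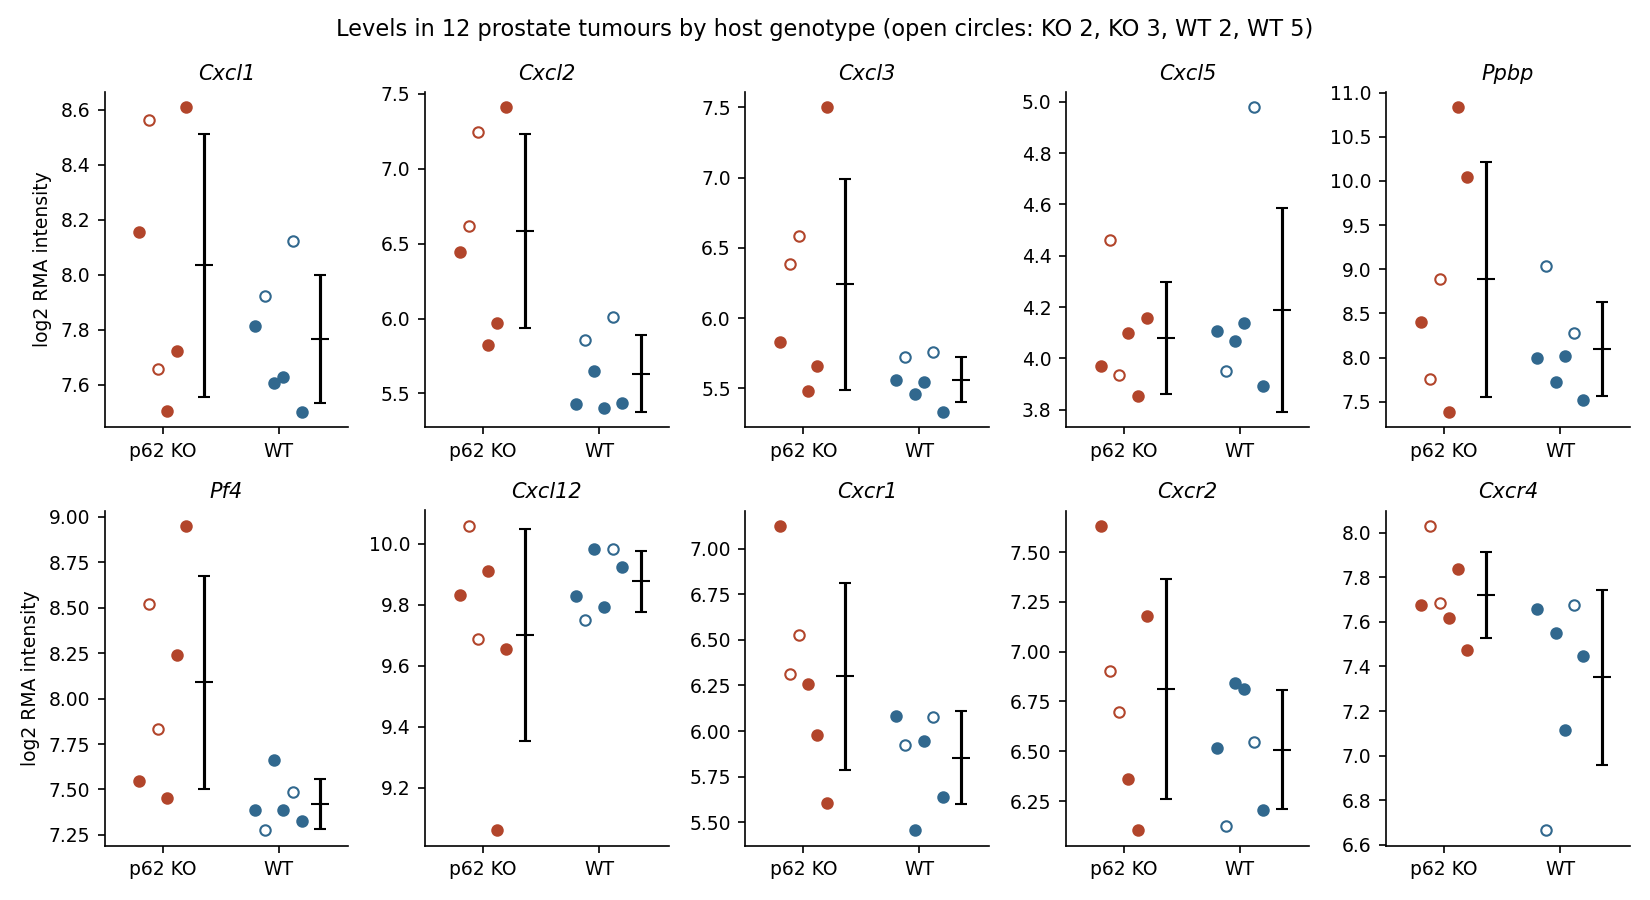
Log2 intensity of each of the 10 genes in every tumour, with p62 KO hosts left of WT hosts; each point is 1 tumour and bars give the mean and SD (n = 6 each). The groups overlap for all 10 genes, and the KO tumours spread more widely than the WT tumours for Cxcl2, Cxcl3, Ppbp and Pf4.

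Among the ligands of CXCR2, Cxcl2 differed most in relation to its error. Its lowest, median and highest levels were 5.82, 6.53 and 7.41 in KO hosts, against 5.40, 5.54 and 6.01 in WT hosts. All 6 KO tumours lay above the WT median and 4 lay above the highest WT tumour, while KO hosts 4 and 5 fell among the WT values. The means of 6.59 ± 0.65 in KO hosts and 5.63 ± 0.26 in WT hosts differed by 0.95 (SE 0.25, 95% interval 0.41 to 1.50), or 1.94-fold, with an unadjusted p of 0.0021 in limma, the 20th smallest of all probe sets. The difference was 0.78 to 1.11 under all alternatives, with adjusted p of 0.54 at the lowest (array weights, limma).

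Cxcl3, the neighbour of Pf4, had lowest, median and highest levels of 5.48, 6.11 and 7.50 in KO hosts, against 5.33, 5.55 and 5.76 in WT hosts. KO hosts 2, 3 and 6 were clearly above the WT tumours, KO host 1 was just above them, and KO hosts 4 and 5 lay within them. The difference was 0.68 (SE 0.28, 95% interval 0.08 to 1.27, unadjusted p = 0.028 by limma), or 1.60-fold, and it was 0.43 without KO host 6, the highest tumour.

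Cxcl1, made by stromal, epithelial and myeloid cells, had lowest, median and highest levels of 7.50, 7.94 and 8.61 in KO hosts, against 7.50, 7.72 and 8.12 in WT hosts. The groups began at nearly the same level, and KO hosts 1, 2 and 6 exceeded the highest WT tumour. The difference of 0.27 (SE 0.20, 95% interval -0.16 to 0.69) did not pass at an unadjusted p of 0.20 in limma, and it was 0.15 without KO host 6. Cxcl5, another CXCR2 ligand, was dim and lay below its own array's lower quartile (4.85 to 5.36) in all 12 tumours, at 3.85, 4.03 and 4.46 in KO hosts and 3.89, 4.09 and 4.98 in WT hosts. Its difference of -0.11 (SE 0.17) rested on WT host 5 and was 0.05 without it.

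The platelet chemokines are Ppbp and Pf4. Pf4 had lowest, median and highest levels of 7.46, 8.04 and 8.95 in KO hosts, against 7.27, 7.39 and 7.66 in WT hosts. All 6 KO tumours were above the WT median, with KO hosts 6, 2, 5 and 3 above every WT tumour and KO hosts 1 and 4 within the WT range. The means of 8.09 ± 0.59 in KO hosts and 7.42 ± 0.14 in WT hosts differed by 0.67 (SE 0.22, 95% interval 0.20 to 1.14), or 1.59-fold (unadjusted p = 0.0090 by limma). Ppbp had the widest spread of the 10 genes: 7.39, 8.65 and 10.83 in KO hosts, against 7.52, 8.01 and 9.03 in WT hosts. KO hosts 5 and 6 stood far above the other 10 tumours, at 10.83 and 10.04. Its difference of 0.79 (SE 0.51, 95% interval -0.30 to 1.88) did not pass, at an unadjusted p of 0.14 in limma, and it was 0.40 without KO host 5 and 1.35 without the 4 narrow arrays.

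Cxcl12, the ligand of CXCR4, had the smallest SD of the 10 genes in WT hosts, 0.10. Its lowest, median and highest levels were 9.06, 9.76 and 10.06 in KO hosts, against 9.75, 9.88 and 9.98 in WT hosts. KO host 5 was alone at 9.06, and the other 5 KO tumours lay at or near the WT tumours. The difference of -0.18 (SE 0.14, 95% interval -0.48 to 0.13) did not pass at an unadjusted p of 0.24 in limma, and it was -0.05 without KO host 5.

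Of the receptors, Cxcr4 stood at 7.47, 7.68 and 8.03 (lowest, median and highest) in KO hosts, against 6.66, 7.50 and 7.67 in WT hosts. KO hosts 1, 2, 3 and 5 lay above every WT tumour, hosts 1 and 3 only just, and WT host 2 was the lowest of all. The means of 7.72 ± 0.19 in KO hosts and 7.35 ± 0.39 in WT hosts differed by 0.37 (SE 0.17, 95% interval 0.01 to 0.73, unadjusted p = 0.044 by limma), and the difference was 0.23 without WT host 2 (unadjusted p = 0.095) and 0.21 without the 4 narrow arrays. Cxcr1 had 5.61, 6.28 and 7.12 in KO hosts, against 5.46, 5.94 and 6.08 in WT hosts. KO hosts 1, 2, 3 and 4 exceeded every WT tumour. Its difference of 0.45 (SE 0.21, 95% interval -0.01 to 0.90, unadjusted p = 0.052 by limma) was 0.28 without KO host 1, its highest tumour. Cxcr2, the receptor shared by most of these ligands, had 6.10, 6.80 and 7.63 in KO hosts, against 6.13, 6.53 and 6.84 in WT hosts. The lowest tumours of both groups were alike, and KO hosts 1, 2 and 6 exceeded the highest WT tumour. Its difference of 0.30 (SE 0.23, 95% interval -0.19 to 0.80, unadjusted p = 0.21 by limma) was 0.14 without KO host 1.

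**Figure D2:**
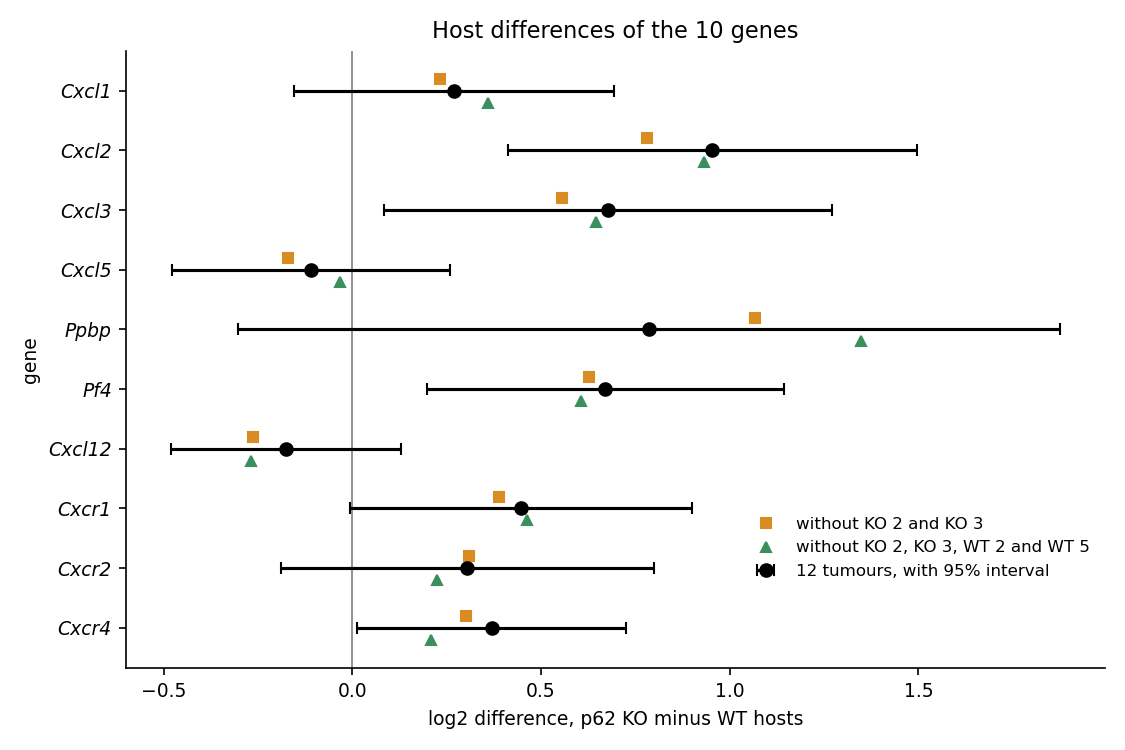
Difference of each gene, p62 KO hosts minus WT hosts, on the log2 scale with 95% intervals from limma over 12 tumours, beside the values without KO hosts 2 and 3 (squares) and without all 4 narrow arrays (triangles). Differences of 8 genes are above 0 over the 12 tumours, and those of Cxcl2, Cxcl3, Pf4 and Cxcr4 have intervals that leave out 0.

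Whether the host difference of a ligand was unlike that of its receptor was tested within tumours, as log2 ligand minus log2 receptor. The test covered 6 pairs (exact two-sided permutation test over 924 assignments, adjusted over 6, smallest possible p 0.0022). The zero point of ligand minus receptor has no meaning across probe sets, so only its difference between hosts is read. For Cxcl12 minus Cxcr4 the lowest, median and highest values were 1.22, 2.09 and 2.29 in KO hosts, against 2.17, 2.46 and 3.09 in WT hosts. No KO tumour lay above the WT median, although the groups overlapped through KO hosts 4 and 6 and WT host 1. The means were 1.98 ± 0.39 in KO hosts and 2.53 ± 0.32 in WT hosts, a difference of -0.54 (SE 0.21, 95% interval -1.002 to -0.09, exact permutation p = 0.0065, adjusted p = 0.039). Taken singly, Cxcr4 differed by 0.37 and Cxcl12 by -0.18, so the larger part lay in the receptor. This call did not hold in most alternatives: the difference kept its direction in all 17, between -0.62 and -0.39, but the adjusted exact permutation p ranged from 0.026 to 0.26 and was under 0.05 in 4 of them. Among others, it was lost without KO host 2, 3, 5 or 6, without WT host 2, 3, 4, 5 or 6, under quantile normalization, without KO hosts 2 and 3, and without the 4 narrow arrays (adjusted exact permutation p = 0.26, difference -0.48).

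For Cxcl2 minus Cxcr2 the means were -0.23 ± 0.61 in KO hosts and -0.88 ± 0.43 in WT hosts, and the difference of 0.65 (95% interval -0.03 to 1.32) did not pass (exact permutation p = 0.067, adjusted 0.20). Of the 6 KO tumours, 5 were above the WT median, with KO host 1, which had the highest Cxcr2, among the lowest tumours. Without KO host 1 the difference was 0.84 (adjusted exact permutation p = 0.045). The remaining pairs, Cxcl3, Ppbp, Cxcl1 and Cxcl5 against Cxcr2, differed by 0.37, 0.48, -0.04 and -0.41, with adjusted exact permutation p of 0.36 to 0.89. These depended on single tumours: Cxcl3 minus Cxcr2 was 0.62 without KO host 1 and 0.19 without KO host 6, and Cxcl5 minus Cxcr2 was -0.23 without KO host 1 and -0.26 without WT host 5. Ppbp minus Cxcr2 was -0.05 without KO host 5 and between 0.73 and 0.75 without KO host 1, KO host 2 or WT host 2.

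**Figure D3:**
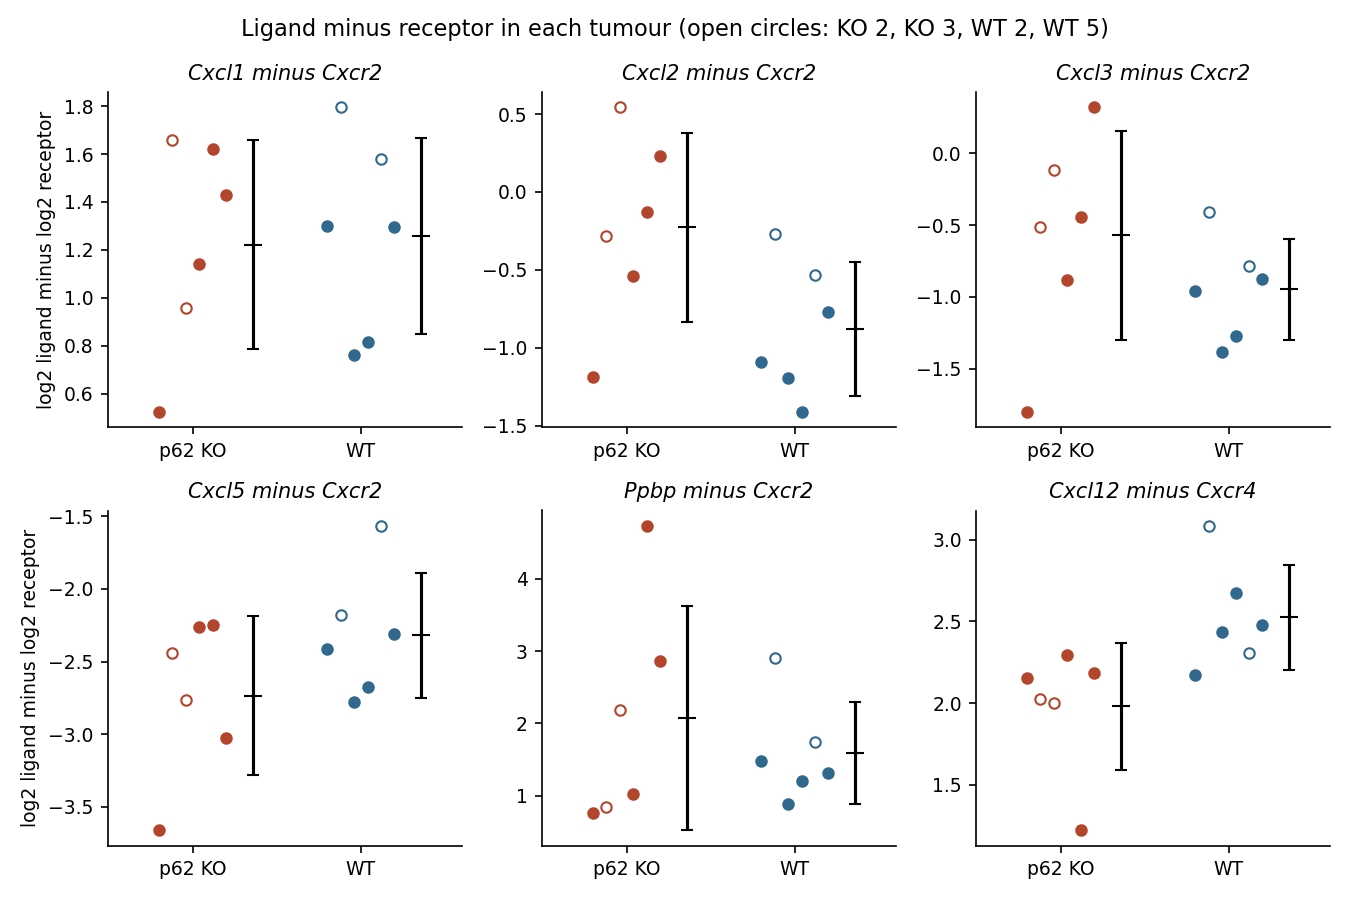
Log2 ligand minus log2 receptor in each tumour for 6 ligand and receptor pairs, p62 KO hosts left of WT hosts, with mean and SD (n = 6 each). For Cxcl12 minus Cxcr4 all 6 KO tumours lie below the WT median, and for Cxcl2 minus Cxcr2 5 of 6 KO tumours lie above it.

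Ligands and receptors were then set against each other across the 12 tumours for 11 pairs. None passed after adjustment over the 11 pairs (100000-resample permutation test, lowest unadjusted p 0.068, and 8 of 11 correlations were positive). By Pearson r the highest values over 12 tumours were those of Cxcr2 with Cxcl1 (Pearson r = 0.55, permutation p = 0.068; Spearman rho = 0.50, permutation p = 0.10), with Cxcl2 (r = 0.50, p = 0.10; rho = 0.42, p = 0.18) and with Cxcl3 (r = 0.46, p = 0.13; rho = 0.48, p = 0.12), each at an adjusted permutation p of 0.48 for r and 0.42 for rho. By rank, Cxcl5 with Cxcr2 was highest (rho = 0.524, permutation p = 0.084; r = 0.125, permutation p = 0.68). Leaving out the 2 tumours farthest from the ligand's median gave r of 0.43, 0.48 and 0.38 for Cxcr2 with Cxcl1, Cxcl2 and Cxcl3. The same omission gave larger values with Cxcr1, 0.678 for Cxcl2 (permutation p = 0.029, adjusted 0.315), 0.531 for Cxcl1 and 0.498 for Cxcl3, against 0.31, 0.17 and 0.04 over 12 tumours. Within KO hosts the 3 pairs with Cxcr2 had r of 0.65, 0.50 and 0.41, and within WT hosts -0.18, -0.20 and -0.10, with no exact permutation p under 0.05 in either group. The correlation of Cxcl12 and Cxcr4 did not pass either (r = -0.02, permutation p = 0.94; rho = 0.105, p = 0.75; adjusted 0.99 for both). Its r was 0.06 in KO hosts, 0.77 in WT hosts (exact permutation p = 0.060), 0.30 without KO hosts 5 and 2, and -0.45 over the 8 tumours with wider arrays.

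The 34 remaining pairs were a family added after the data had been seen, and 3 of them passed after adjustment over the 34, each between ligands. Cxcl2 and Cxcl3 had r = 0.925 (permutation p = 1e-05, the smallest these resamples can give; adjusted 0.00034) and rho = 0.888 (permutation p = 0.0003; adjusted 0.010). Both were highest in KO hosts 6 and 3, and r was 0.863 without them (adjusted permutation p = 0.022) and 0.927 over the 8 tumours with wider arrays (adjusted exact permutation p = 0.035). Within KO hosts r was 0.933 and within WT hosts 0.778 (exact permutation p of 0.0014 and 0.0875, unadjusted). Cxcl12 and Ppbp ran in opposite directions, with r = -0.882 (permutation p = 0.00019; adjusted 0.0032) and rho = -0.790 (permutation p = 0.0033; adjusted 0.038). KO host 5 had the highest Ppbp and the lowest Cxcl12. Without KO hosts 5 and 2 r was -0.802 (adjusted permutation p = 0.066), and it was -0.904 over the 8 tumours with wider arrays (adjusted exact permutation p = 0.022). Within KO hosts r was -0.900 and within WT hosts -0.585 (exact permutation p of 0.0056 and 0.22, unadjusted). Cxcl3 and Pf4 had r = 0.821 (permutation p = 0.0035; adjusted 0.039) and rho = 0.622 (permutation p = 0.036; adjusted 0.13), but r was 0.706 without KO hosts 6 and 3 (adjusted permutation p = 0.31), 0.882 over the 8 tumours (adjusted exact permutation p = 0.12) and -0.116 within WT hosts. Cxcl1 and Cxcl3 had r = 0.727 (permutation p = 0.0090; adjusted 0.064) and rho = 0.839 (permutation p = 0.0011; adjusted 0.019), and r was 0.256 without KO hosts 6 and 2. Over the 8 tumours with wider arrays its r was 0.920 (adjusted exact permutation p = 0.022), and within WT hosts 0.944 (exact permutation p = 0.0028, unadjusted). By rank over the 8 tumours, rho was 0.643 for Cxcl2 with Cxcl3, -0.833 for Cxcl12 with Ppbp and 0.643 for Cxcl3 with Pf4. These did not pass (adjusted exact permutation p of 0.36, 0.17 and 0.36). For Cxcl1 with Cxcl3 rho was 0.952 (adjusted exact permutation p = 0.039).

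**Figure D4:**
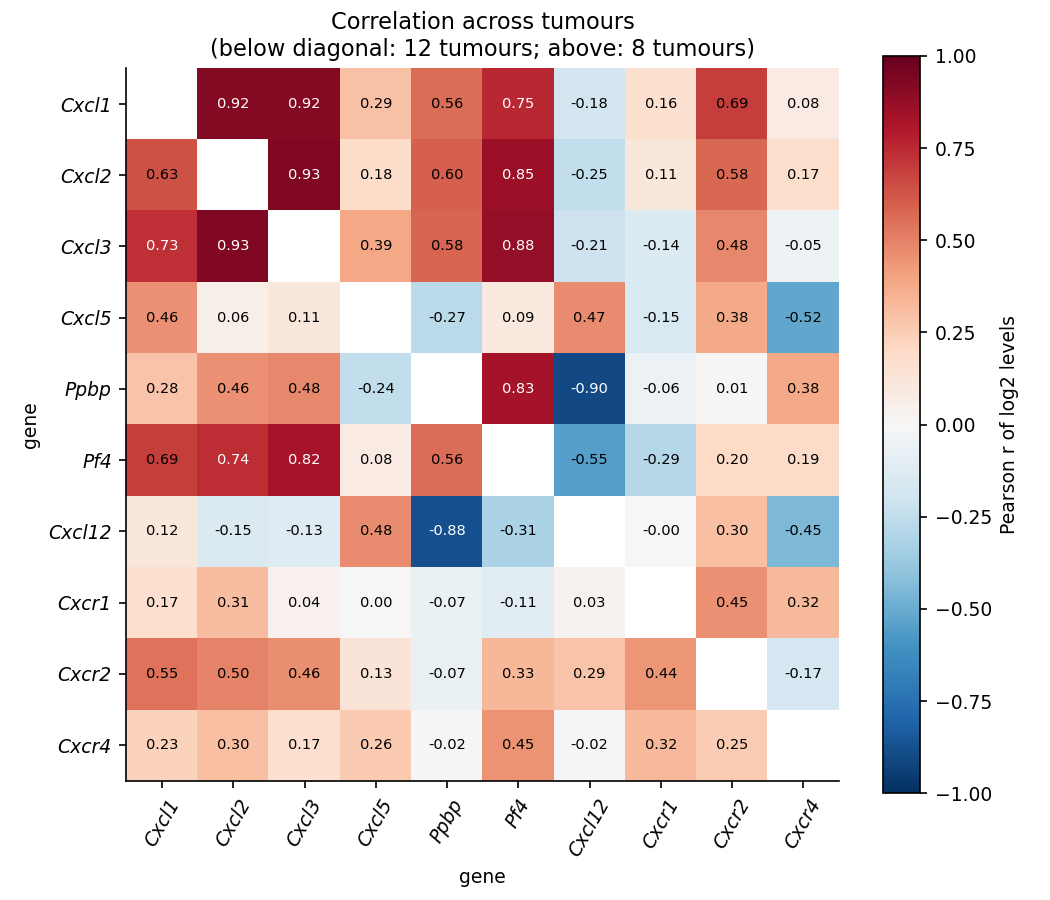
Pearson r of log2 levels between the 10 genes, over 12 tumours below the diagonal and over the 8 tumours with wider arrays above it. Over 12 tumours Cxcl2 with Cxcl3 has the highest value, 0.925, and Cxcl12 with Ppbp the lowest, -0.882.

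**Figure D5:**
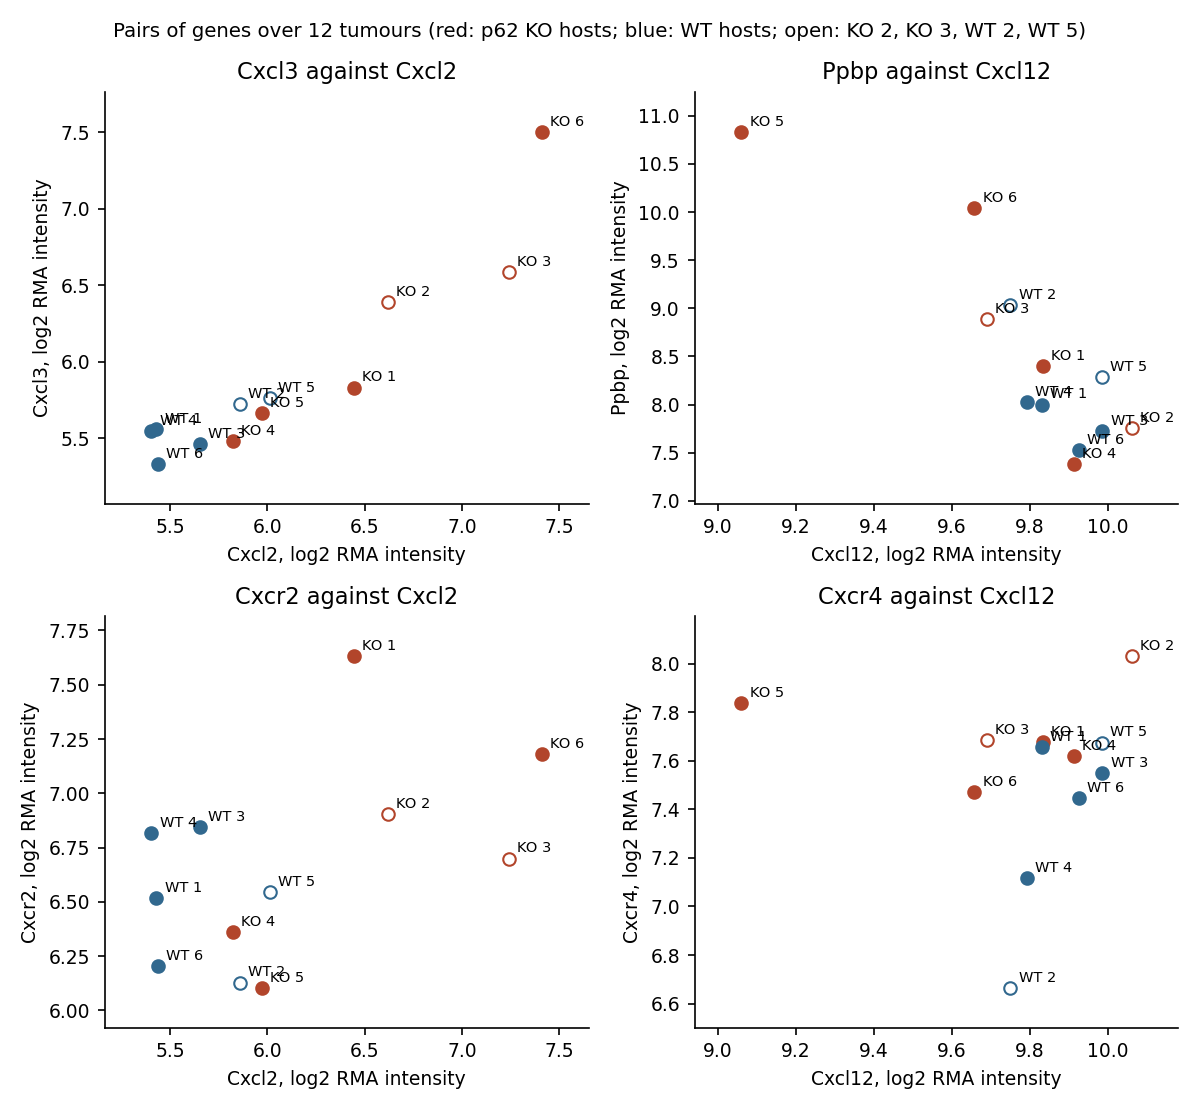
Log2 intensity of 4 gene pairs in the 12 tumours, with p62 KO hosts in red, WT hosts in blue, the 4 narrow arrays as open circles and each point 1 tumour. The KO tumours carry most of the range of Cxcl2, Cxcl3 and Ppbp, and KO host 5 lies at high Ppbp and low Cxcl12.

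In whole-tumour RNA, fewer cells of a type and less RNA per cell cannot be told apart, so marker lists of cell types that the tumours could hold are given beside them. For the counts of these lists and of those further below, 55.6% of all genes were higher in KO hosts. Of all probe sets, 1.28% were higher and 1.11% lower at an unadjusted p under 0.05 (limma). Of 21 measured neutrophil markers, 19 were higher in KO hosts and 0 passed the adjusted threshold, with 4 higher at an unadjusted p under 0.05 (limma): S100a9 (0.58, SE 0.18), Trem1 (0.55, SE 0.20), Ly6g (0.44, SE 0.19) and S100a8 (0.43, SE 0.19). S100a8 and S100a9 encode the subunits of calprotectin, abundant in neutrophil cytosol, and Ly6g is the mouse neutrophil surface antigen. The median difference of the list was 0.19, compared with 0.02 over all genes. The summed level of the list, as its mean per tumour, ran from 5.64 to 6.28 in KO hosts and from 5.48 to 6.00 in WT hosts, was highest in KO host 2, and differed by 0.26, or 0.12 without KO hosts 2 and 3. Of the 21, 5 were below the median lower quartile, Ly6g among them at 4.66 ± 0.47 in KO hosts and 4.22 ± 0.16 in WT hosts. Across all 12 tumours, Cxcl2 had the highest Pearson r with this list (r = 0.828, permutation p = 0.0010, adjusted 0.0505 over 50 relations; rho = 0.804, adjusted 0.062), which did not pass, and r was 0.807 without KO hosts 6 and 3. Cxcl3 had r = 0.766 (adjusted permutation p = 0.073) and the highest rho, 0.944 (adjusted permutation p = 0.001). Without KO hosts 6 and 3 its r was 0.960 (adjusted permutation p = 0.003), and over the 8 tumours with wider arrays it was 0.855 (adjusted exact permutation p = 0.0087). Cxcl1 had r = 0.693 (adjusted permutation p = 0.10), 0.929 over the 8 tumours (adjusted exact permutation p = 0.025) and 0.465 without KO hosts 6 and 2. For Cxcl2 r over the 8 tumours was 0.856 (adjusted exact permutation p = 0.079). By rank over the 8 tumours, rho with the list was 0.929 for Cxcl3, 0.881 for Cxcl1 and 0.50 for Cxcl2. None of these passed (adjusted exact permutation p of 0.11, 0.18 and 0.58). Cxcr2 had r = 0.448 (adjusted permutation p = 0.59). The part of neutrophil content in the chemokine differences was not tested.

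Of 12 measured platelet markers, 11 were higher in KO hosts and 1, Itgb3 (integrin beta 3), passed an unadjusted p under 0.05 (0.34, SE 0.10, limma), with a median difference of 0.09 and list means of 6.98 to 7.25 in KO hosts and 6.95 to 7.11 in WT hosts. Pf4 and Ppbp had r of 0.695 and 0.620 with the platelet list (adjusted permutation p of 0.10 and 0.21). Within WT hosts Pf4 had r = -0.19 with it. Over the 8 tumours with wider arrays, Pf4 had r of 0.857 with platelet, 0.821 with endothelial and 0.815 with macrophage markers. Their adjusted exact permutation p was 0.16, 0.025 and 0.079. Over 12 tumours r was 0.469 and 0.601 with the endothelial and macrophage lists (adjusted permutation p of 0.53 and 0.23). By rank over the 8, the endothelial list did not pass (rho = 0.833, adjusted exact permutation p = 0.26). Of 15 macrophage markers 13 were higher, none at an unadjusted p under 0.05 (limma), with list means of 8.60 to 9.19 in KO hosts and 8.56 to 8.96 in WT hosts. Of 12 fibroblast markers 5 were higher (list means of 8.88 to 9.57 in KO hosts and 9.16 to 9.48 in WT hosts), and of 12 endothelial markers 8 were higher (6.86 to 7.47 in KO hosts and 6.90 to 7.41 in WT hosts). Neither list had a gene at an unadjusted p under 0.05 (limma). Of 7 measured B cell markers 5 were higher, with list means of 5.08 to 5.68 in KO hosts and 5.02 to 5.58 in WT hosts. The mean of this list differed by 0.08, or by -0.01 without KO hosts 2 and 3. Cd79a, a subunit of the B cell receptor, averaged 5.05 ± 0.24 in KO hosts and 4.42 ± 0.20 in WT hosts (difference 0.63, SE 0.13, unadjusted p = 0.00022 by limma). Its WT mean was below the median lower quartile. Cd79b, Pax5 and Jchain of the same list differed by 0.08 (SE 0.14), 0.12 (SE 0.12) and -0.45 (SE 0.46). Of 11 measured T and NK cell markers 6 were higher, with list means of 4.97 to 5.39 in KO hosts and 4.90 to 5.59 in WT hosts. Of 8 adipocyte markers 7 were higher, with list means of 6.22 to 6.58 in KO hosts and 5.95 to 6.42 in WT hosts, and Lep, which encodes leptin, differed by 0.41 (SE 0.11, unadjusted p = 0.0026 by limma). Lep was dim, at 4.95 ± 0.21 in KO hosts and 4.54 ± 0.15 in WT hosts, at or below the median lower quartile. Adipoq, Plin1 and Fabp4 of the same list differed by 0.08 (SE 0.19), 0.17 (SE 0.10) and 0.57 (SE 0.34). Of 8 skeletal muscle markers 7 were higher, with list means of 5.60 to 6.04 in KO hosts and 5.59 to 5.75 in WT hosts. The mean of the muscle list differed by 0.08, or by -0.03 without KO hosts 2 and 3. The part of these cell types in the chemokine differences was not tested.

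The other genes of these pathways were also counted, and 0 of them passed the adjusted threshold (limma). Of the 13 other CXC chemokines and receptors, 7 were higher and 6 lower in KO hosts, with a median difference of 0.07. The 2 with an unadjusted p under 0.05 were both lower: Cxcl15, which lies between Cxcl3 and Cxcl1, at 5.75 ± 0.72 in KO hosts and 7.19 ± 1.33 in WT hosts (difference -1.44, SE 0.54, unadjusted p = 0.018 by limma), and Cxcr6, the receptor of CXCL16, at 5.49 ± 0.17 in KO hosts and 5.89 ± 0.46 in WT hosts (difference -0.40, SE 0.18). The interferon-induced Cxcl9 and Cxcl10 differed by -0.21 (SE 0.49) and -0.35 (SE 0.29), and Ackr3, a scavenging receptor for CXCL12, by 0.22 (SE 0.14). Among 21 measured inducers of CXCR2 ligands and of neutrophil production, 17 were higher, with a median of 0.07. Only Nfkbia, the NF-kB inhibitor that NF-kB itself induces, had an unadjusted p under 0.05 (0.28, SE 0.10, limma), while Il17a and Il17f, cytokines that induce CXCR2 ligands, differed by 0.19 (SE 0.13) and 0.18 (SE 0.10).

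Of 16 measured other neutrophil attractants and their receptors, 12 were higher in KO hosts (median 0.11). Mif, a cytokine that can bind CXCR2 and CXCR4, differed by 0.32 (SE 0.12) and Ccl3, a chemokine of myeloid cells, by 0.63 (SE 0.25), each at an unadjusted p under 0.05 (limma). Of 18 measured adhesion and transmigration genes, 8 were higher and 10 lower with none at an unadjusted p under 0.05 (limma), among them Sele, the endothelial selectin (0.10, SE 0.15). Of 21 measured genes of receptor signalling, 16 were higher (median 0.05), and Arrb1, an arrestin that uncouples the receptors, was the only one at an unadjusted p under 0.05 (0.26, SE 0.12, limma). Of 19 genes of chemokine proteolysis and scavenging, 13 were higher and none reached it, with Dpp4, a peptidase that trims CXCL12, at -0.02 (SE 0.21). The mean of this list differed by 0.13, or by -0.02 without KO hosts 2 and 3. Of 12 immediate early genes 11 were higher, with a median of 0.18, and Fos, Dusp1 and Nr4a1 had unadjusted p under 0.05 (limma, 0.29, 0.56 and 0.45). These genes also respond to tissue handling, and their part in the chemokine differences was not tested.

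The genes most like each chemokine or receptor were ranked by the smaller of Pearson r over 12 tumours and over the 8 tumours with wider arrays, as a description with no test and with the 10 genes themselves left out. Outside the 10 genes, Cxcl2 was most like Slc16a3, a lactate exporter, with r of 0.94 over 12 and 0.92 over 8 tumours, then Rbp4, Lep, Trem1 and Svs6. On the same terms, Cxcl3 was most like Trem1, a receptor of neutrophils and monocytes, with r of 0.93 and 0.95, then Ecm1, Svs6 and Pstpip1. Of these, Lep and Svs6 were dim, with means at or below 4.95, the median lower quartile, in both host groups. Cxcl1 was most like Cpz (0.89 and 0.88) and Sema6b (0.87 and 0.93). Cxcl12 was most like Clu, which encodes clusterin, a secreted chaperone, with r of 0.86 and 0.95, Cxcr2 most like Bloc1s4 (0.93 and 0.93), and Cxcr4 most like Btg2, an antiproliferative gene, with r of 0.90 and 0.91. Cxcl5 had the weakest match, Fmo1 (0.82 and 0.76). All points share the same 12 arrays.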

How the data were processed

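Total RNA from 12 tumours, amplified with the Ovation Pico WTA kit and labelled with biotin, was hybridised to 1 array per tumour, per the labels' protocols. The authors deposited 1 log2 intensity for each probe set and tumour, made with RMA, per the submitters' processing notes (version not given in the sources used here). Groups were taken from the labels, and the labels give no scan date or batch. Of 34760 rows, the 6568 with the lowest identifiers carry no gene and were taken as controls. The other 28192 probe sets were compared between hosts by limma (version 3.58.1, under R 4.3.3) with lmFit and eBayes, without covariates and with Benjamini-Hochberg adjustment at a threshold of 0.05. Detection calls were not used. An array has no counting depth, and precision is limited by the number of arrays. The 6 ligand minus receptor values used an exact permutation test. Correlations used 100000 resamples for 12 tumours and exact enumeration for 8 or fewer, in Python 3.11.15 with scipy 1.17.1.

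The genes, the 18 lists (236 of 259 genes measured) and the tests were chosen with earlier results of these data known. The rule for named genes takes the 10 genes, Sqstm1, the first 2 measured genes of each list, up to 3 more by smallest unadjusted p, and the most alike genes. The letter strings, the 34 further gene pairs and the count of genes under each alternative were added after the data had been seen. Each tumour is from a separate mouse, so p-values measure the spread between mice. Alternatives covered array scaling, filtering of dim probe sets, probe sets per gene, eBayes settings, weights per array, a block for mouse number, array range as a covariate, all rows, and tumours left out. The scripts were tested on simulated data.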

Additional observations from a re-analysis of the deposited data

Results flagged for a closer look

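Among 20 groups of 6 tumours (10 genes in 2 host groups), Cxcl5 in WT host 5, at 4.98, lay far from the other WT tumours, which ran from 3.89 to 4.14. Its gap to the nearest of them was 0.773 of the range of the group, against a critical value of 0.625. Chance alone marks about 1 in 20 such groups. WT host 5 is 1 of the 4 arrays with a narrow range, and a part of array quality in this value was not tested.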

How the results depend on the processing

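The count of genes among the 10 passing the adjusted threshold was 0 in all 24 alternatives of the limma fit, with 4 genes at an unadjusted p under 0.05, and 2 to 5 under the alternatives. Over those alternatives, 1.54% to 7.72% of all probe sets tested had an unadjusted p under 0.05 (limma), against 2.39% in the main fit. As each of the 10 genes has a single probe set, the alternatives on probe sets per gene left the 10 differences unchanged. The 1 probe set called over all probe sets was 0 under the replicate block, with all rows of the table, and without KO hosts 2 and 3, and ran from 0 to 1 when 1 tumour was left out. The count of ligand minus receptor pairs called was 1, and it was 0 under quantile normalization, without KO hosts 2 and 3, without the 4 narrow arrays and with the replicate block, and 0 to 2 with 1 tumour left out. Under the replicate block Cxcl12 minus Cxcr4 had an adjusted exact permutation p of 0.19, its difference of -0.54 being the same. Directions turned in these cases. The Cxcl5 difference ran from -0.19 to 0.048 with 1 tumour left out. Cxcl1 minus Cxcr2 was 0.013 under quantile normalization, 0.14 without the 4 narrow arrays, and -0.13 to 0.10 with 1 tumour left out, and Ppbp minus Cxcr2 was -0.050 to 0.75 with 1 left out. The correlation of Cxcl12 with Cxcr4 was 0.23 under quantile normalization and -0.19 to 0.48 with 1 left out. That of Cxcl3 with Cxcr1 was -0.027 under quantile normalization, -0.14 without KO hosts 2 and 3, -0.14 without the 4 narrow arrays, and -0.070 to 0.55 with 1 left out. That of Cxcl5 with Cxcr1 was -0.25 under quantile normalization, -0.15 without the 4 narrow arrays, and -0.079 to 0.18 with 1 left out. That of Ppbp with Cxcr2 was 0.0093 without the 4 narrow arrays and -0.29 to 0.30 with 1 left out, and that of Ppbp with Cxcr1 was -0.19 to 0.10 with 1 left out. The cause of these changes was not tested. The filter on dim probe sets removed Cxcl5.

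The labels do not say whether tumours with the same mouse number were paired. Deviations of same-numbered tumours from their group means correlated at 0.14, 0.37, -0.55, 0.37, -0.54 and 0.34, and 0 of 6 KO tumours correlated best with its own number. The values of -0.55 and -0.54 are from mouse numbers 3 and 5, where KO host 3 and WT host 5 have narrow arrays. As array range enters these deviations, the check cannot exclude pairs. With no pairs stated, the replicate block was only an alternative. Cxcl5 and other dim probe sets are limited by signal over background, which detection calls were not used to measure.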

Other observations

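Cxcl15, the CXC chemokine encoded between Cxcl3 and Cxcl1, spread more widely than any of its measured neighbours in WT hosts. Its lowest and highest levels were 4.98 and 6.87 in KO hosts, against 6.04 and 8.98 in WT hosts, with WT hosts 6 and 2 at 8.98 and 8.76. The groups overlapped.

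By the same ranking, applied after the data had been seen to the genes that had not been planned for it, Ppbp was most like Cyp3a13, a cytochrome P450, with r of 0.96 over 12 tumours and 0.98 over the 8 tumours with wider arrays. Pf4 was most like Sstr1, a somatostatin receptor, with r of 0.92 and 0.96, and its list also held Trem1 (0.88 and 0.94) and Twist2 (0.88 and 0.90). Cxcr1 was most like Cmtm5 (0.94 and 0.94). These are descriptions with no test, and all share the same arrays.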
